A study of Arabidopsis thaliana with 12 samples.

Results

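The loss of the transcription factors MYC2, MYC3 and MYC4 was examined in seedlings that already lack 5 jasmonate repressors, by comparing the octuple mutant jazQ mycT with the quintuple mutant jazQ over all genes. The comparison is between 6 of the 12 libraries of the series, 3 of jazQ mycT and 3 of jazQ. The spread used in the tests was estimated over all 12. Each library came from about 200 pooled whole seedlings, roots included, of the Col-0 ecotype, grown for 8 d on sucrose medium in continuous light without added jasmonate. The jazQ mycT plants carry insertions in JAZ1, JAZ3, JAZ4, JAZ9 and JAZ10 and in MYC2, MYC3 and MYC4. The jazQ plants carry the 5 JAZ insertions alone, the mycT plants carry the 3 MYC insertions alone, and Col-0 is the wild type. The jazQ and Col-0 libraries were reused from an earlier study whose plants, according to the paper, were grown and processed in parallel. The samples are labelled as 3 biological replicates per genotype, and the sources used here name no independent lines of a genotype.

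Jasmonate is a wound and defense hormone of plants. JAZ proteins repress transcription by binding MYC2 and its relatives together with a corepressor, and the hormone triggers their destruction, which frees the MYC proteins to activate genes through G-box sequences. MYC proteins are known to drive wound-response and glucosinolate genes, glucosinolates being the sulfur-rich defense compounds of the cabbage family, and to hold back a second branch of the response that jasmonate shares with ethylene. The comparison asks which genes are at another level in JAZ-depleted seedlings once the MYC genes are mutated too. In pools of whole seedlings, fewer cells of a type and less RNA per cell cannot be told apart.

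The libraries held 12336090 to 26347184 counts. Genes for ribosomal RNA took 10.8% of the counts in jazQ mycT replicate 1 and 5.04% in mycT replicate 1, and 0.723% to 2.08% in the other libraries. Levels are given as TPM, the authors' length-normalised abundances, which were not corrected for this, and the median gene was lower by 0.097 on the log2 scale in jazQ mycT than in jazQ when TPM were compared as deposited. Fold changes and tests come from edgeR's quasi-likelihood test on the counts after TMM normalization, where that median was −0.0065, with Benjamini-Hochberg adjustment over 20888 genes and a call at an adjusted p under 0.05. No member of 18 root markers or 14 shoot markers was called. Their summed levels were 98.9 to 118 TPM in jazQ mycT and 122 to 124 TPM in jazQ for the root markers, and 180 to 228 TPM in jazQ mycT and 204 to 210 TPM in jazQ for the shoot markers, and no marker was at 0 in all 6 libraries. The part of the root markers in the results was not tested.

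Many glucosinolate synthesis genes, myrosinase-binding proteins, some enzymes of jasmonate synthesis and some wound markers were lower in jazQ mycT than in jazQ. The calls of the wound markers were lost without some single libraries. Defensins and the ethylene response factors ERF2 and ORA59 were higher. In all, 183 genes (0.876% of those tested) were called lower in jazQ mycT and 278 (1.33%) were called higher, together 2.21%. The fall was the deeper change, since 67 of the genes called lower and 34 of those called higher differed by at least 1 on the log2 scale. The median log2 fold change of the genes called lower was −0.69, and all 183 had non-overlapping TPM values, against 19.3% of the tested genes that were lower in every jazQ mycT library than in any jazQ library. Of the genes called higher, 232 of 278 did not overlap (100 of 142 outside a stretch of chromosome 2). Over all tested genes, that stretch included, 3.23% were higher in every jazQ mycT library than in any jazQ library. These TPM carry the downward shift in jazQ mycT given above, which makes overlap less likely for a fall than for a rise, so the shares of the 2 directions are not comparable. Of the higher calls, 136 lay together at the start of chromosome 2 and are described at the end, leaving 142 elsewhere (0.687% of the other tested genes, of which 0.885% were lower) with a median of 0.50. These 142 numbered 87, 51 and 76 without jazQ mycT replicates 1, 2 and 3, 56 without jazQ replicate 2, and 43, 41 and 30 in the 3 comparisons of log2 TPM as deposited.

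**Figure D1:**
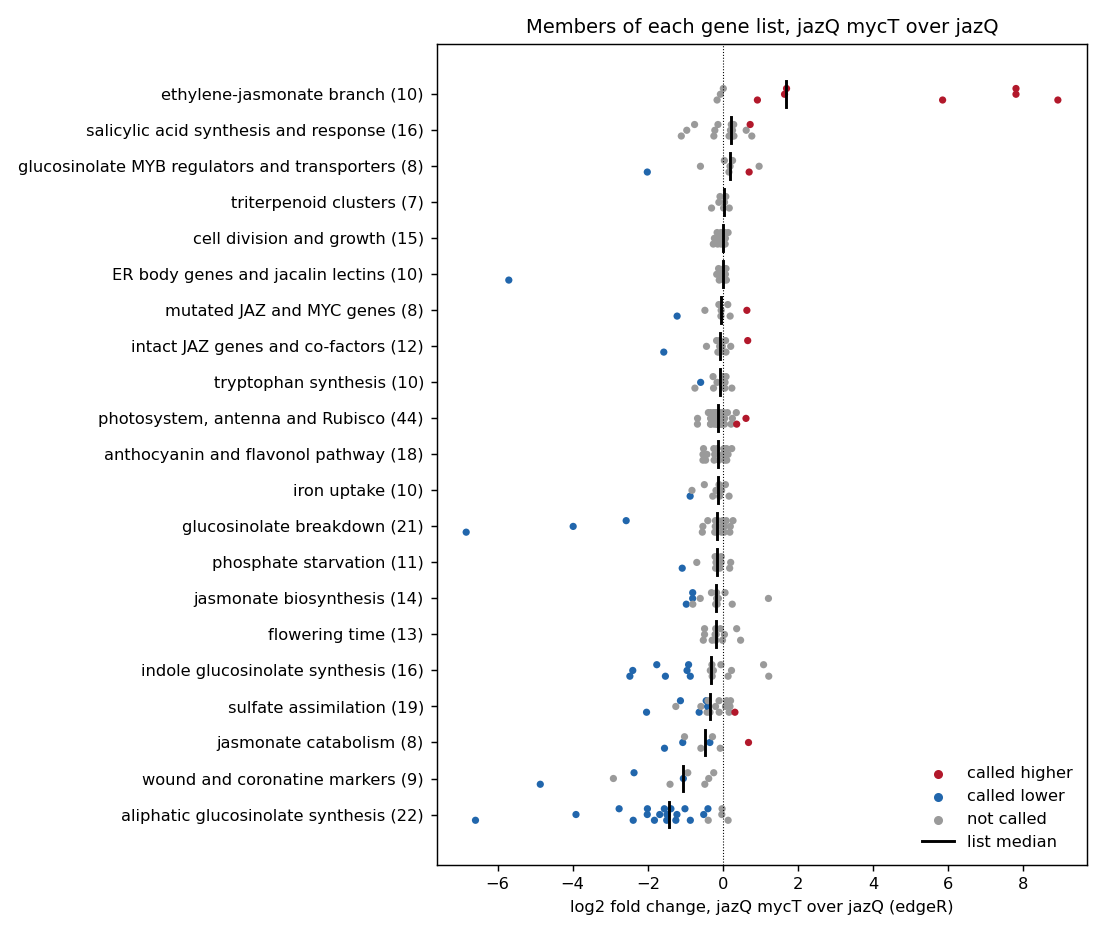
Each point is a member of a gene list, placed by its edgeR log2 fold change of jazQ mycT over jazQ on the horizontal axis, with the number of tested members in brackets, the list median as a bar, and called members in blue (lower) or red (higher). The aliphatic glucosinolate list has its median at −1.44 and the ethylene-jasmonate branch at 1.67, while the triterpenoid clusters sit at 0.02. The fitted values of PDF1.2B, PDF1.2C and PDF1.3, at the far right, rest on 0 to 2 counts in jazQ.

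The genes of aliphatic glucosinolate synthesis, which builds these compounds from methionine, were the list with the most members called. Of 22 tested members 18 were called lower in jazQ mycT and none higher, with a median log2 fold change of −1.44. IPMI1 (AT3G58990), a small subunit of the isomerase that lengthens the methionine side chain, was at 0.18, 0.51 and 0.36 TPM in jazQ mycT, against 34.1, 38.4 and 33.1 TPM in jazQ (log2 fold change −6.59, standard error 0.40, edgeR adjusted p = 3.3e-06). IPMI2 (AT2G43100), a relative of IPMI1, was at 3.42, 4.36 and 3.91 TPM in jazQ mycT, against 60.95, 68.2 and 59.0 TPM in jazQ (−3.91, standard error 0.24, edgeR adjusted p = 3.56e-06). MAM3 (AT5G23020), which condenses the chain-lengthening precursors, was at 7.59, 5.22 and 6.75 TPM in jazQ mycT, against 48.5, 46.5 and 50.2 TPM in jazQ (−2.76, edgeR adjusted p = 6.91e-05). The values of the 2 genotypes did not overlap for any of these 3 genes, as for all 183 genes called lower. The highest jazQ mycT value stayed far below the lowest jazQ value.

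Core and side-chain enzymes of the same pathway fell as well. CYP79F1 (AT1G16410), which turns the lengthened amino acids into aldoximes, was at 14.1, 13.3 and 10.8 TPM in jazQ mycT, against 71.2, 87.2 and 56.2 TPM in jazQ (−2.39, standard error 0.23, edgeR adjusted p = 0.000144). SOT17 (AT1G18590), a sulfotransferase of the last core step, averaged 5.53 ± 0.91 TPM in jazQ mycT and 24.4 ± 1.57 TPM in jazQ (mean ± SD, n = 3, as in all such values), a log2 fold change of −2.01. The log2 fold change was −1.82 for MAM1, −1.25 for BCAT4, the aminotransferase that starts the pathway, −1.01 for IMD1 and −0.87 for CYP83A1. The 4 members without a call were IMD3, FMO-GS-OX2, FMO-GS-OX4 and FMO-GS-OX5, with log2 fold changes of 0.14, −0.39, −0.02 and −0.03. Outside the list, AOP2 (AT4G03060), a dioxygenase family member of side-chain modification, was among the 10 deepest falls, at 0.597 ± 0.196 TPM in jazQ mycT and 7.85 ± 1.35 TPM in jazQ (−3.55, edgeR adjusted p = 0.000255). The number of list members called lower was 12 to 18 over all alternatives. It was lowest without jazQ mycT replicate 2, where the log2 fold change of IMD1 lost its call at an edgeR adjusted p of 0.0501, and the call of CYP83A1 was lost without jazQ mycT replicate 2 or 3 or jazQ replicate 1 or 2, at an adjusted p of up to 0.0779.

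Supply genes for methionine were looked at after their values were seen, except HMT3, which the naming rule chose. HMT3 (AT3G22740), a homocysteine S-methyltransferase, was at 1.26, 1.38 and 1.14 TPM in jazQ mycT, against 8.16, 8.76 and 4.98 TPM in jazQ (−2.43, edgeR adjusted p = 0.000485). The log2 fold change was −1.73 for aspartate kinase AK3, −0.69 for methionine synthase MS2, −0.38 for homoserine kinase HSK and −0.34 for cystathionine beta-lyase CBL, each with a call. The call of CBL was lost without jazQ mycT replicate 2, at an adjusted p of 0.0607 by edgeR.

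For indole glucosinolates, which are made from tryptophan, genes of core enzymes fell, and no gene of ring modification was called. Of 16 tested members 7 were called lower and none higher, with a median log2 fold change of −0.31. CYP79B3 (AT2G22330), which converts tryptophan to its aldoxime, was at 13.4, 12.8 and 11.5 TPM in jazQ mycT, against 76.3, 80.8 and 69.8 TPM in jazQ, a 5.57-fold lower level (log2 fold change −2.48, standard error 0.14, edgeR adjusted p = 2.15e-06). Its paralog CYP79B2 had a log2 fold change of −2.40, and the next enzyme, CYP83B1, one of −1.53. GSTF9, a glutathione S-transferase, averaged 255 ± 38.4 TPM in jazQ mycT and 925 ± 44.5 TPM in jazQ (−1.76), while its relative GSTF10 averaged 485 ± 43.5 TPM in jazQ mycT and 473 ± 5.08 TPM in jazQ (0.14, edgeR adjusted p = 0.294). None of the 4 CYP81F or 3 IGMT genes of ring modification was called, their log2 fold changes lying between −0.34 (CYP81F1) and 1.22 (CYP81F2, edgeR adjusted p = 0.337).

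The sulfur that glucosinolates need is loaded through activated sulfate, and its 2 glucosinolate-linked kinases fell. APK2 (AT4G39940) averaged 12.3 ± 1.16 TPM in jazQ mycT and 54.3 ± 6.78 TPM in jazQ (log2 fold change −2.03, edgeR adjusted p = 0.0002), and APK1 averaged 48.4 ± 1.9 TPM in jazQ mycT and 114 ± 13 TPM in jazQ (−1.13). Among 19 tested genes of sulfate assimilation 5 were called lower and 1, APS4, was called higher by 0.32. No member was called higher without jazQ mycT replicate 2 or 3, without any jazQ library, or on log2 TPM as deposited. The reductases APR2 and APR3 averaged 253 ± 23.2 and 267 ± 21.8 TPM in jazQ mycT, against 242 ± 23.7 and 252 ± 33.3 TPM in jazQ, without a call. The other lower calls were also lost under some alternatives. That of APS1 (−0.45) was lost without jazQ mycT replicate 2 or 3 or jazQ replicate 1 or 2, at an adjusted p of up to 0.0929. That of SAL1 (−0.41) was lost without these libraries and without jazQ replicate 3, mycT replicate 1 or 2 or Col-0 replicate 1 or 2, at up to 0.198, and that of SULTR1;2 (−0.63) without any jazQ mycT library or jazQ replicate 1 or 2, at up to 0.0841. In tryptophan synthesis, ASA1, the first committed enzyme, averaged 22.1 ± 3.16 TPM in jazQ mycT and 35.5 ± 2.08 TPM in jazQ (−0.59, edgeR adjusted p = 0.00164), and the other 9 of 10 members were not called, although 3 members were called lower without jazQ replicate 3.

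Among 8 tested MYB regulators and transporters of glucosinolates, the MYB genes MYB76 and MYB34 were called, 1 lower and 1 higher. MYB28, a main activator of the aliphatic branch, averaged 41.1 ± 3.15 TPM in jazQ mycT and 39 ± 2.41 TPM in jazQ (log2 fold change 0.16, edgeR adjusted p = 0.448). MYB34, an activator of the indole branch, was at 67.3, 68.5 and 66.3 TPM in jazQ mycT, against 41.1, 52.1 and 41.2 TPM in jazQ, with no overlap (0.70, edgeR adjusted p = 0.00865), and lost its call on log2(TPM + 1) without a filter, at an adjusted p of 0.0629. MYB76, at 0.45, 0.32 and 0.69 TPM in jazQ mycT and 1.92, 3.45 and 1.12 TPM in jazQ, was called lower (−2.01, edgeR adjusted p = 0.0249). That call was lost without any jazQ mycT library or jazQ replicate 1 or 2, at an adjusted p of up to 0.12 over all alternatives. It was also lost with the compared genotypes fitted alone, on log2(TPM + 0.1), on log2(TPM + 1) without a filter and on centred log2(TPM + 1).

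Glucosinolate breakdown genes were mostly at like levels in the 2 genotypes, apart from 3 of 21 that were called lower. The myrosinase TGG1 averaged 1073 ± 141 TPM in jazQ mycT and 1271 ± 190 TPM in jazQ (log2 fold change −0.15, edgeR adjusted p = 0.545). The 3 members called were the myrosinase-binding proteins MBP1 and MBP2 and the beta-glucosidase BGLU18. MBP1 (AT1G52040) was at 0.3, 0.66 and 0.45 TPM in jazQ mycT, against 11.4, 9.44 and 2.35 TPM in jazQ (−3.99, standard error 0.58, edgeR adjusted p = 0.00233). MBP2 (AT1G52030) had 3 counts over the jazQ mycT libraries and 328 over the jazQ libraries, a ratio of 133 that counting error alone places between 45.0 and 647 (95% Clopper-Pearson). BGLU18 (AT1G52400), a glucosidase of wound-inducible ER bodies, was at 10.4, 13.6 and 11.9 TPM in jazQ mycT, against 81.5, 107 and 40.2 TPM in jazQ (−2.58, edgeR adjusted p = 0.00062). AT1G52000, a mannose-binding lectin gene, and AT1G52410, whose product is annotated as TSK-associating protein 1, lie near these genes on chromosome 1. They were looked at after their values were seen and were lower by −2.33 and −1.50 on the log2 scale.

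JAL23 (AT2G39330), a jacalin-related lectin, was the 1 member called among 10 genes of ER bodies and jacalin lectins. It was at 0.18, 0.25 and 0.23 TPM in jazQ mycT, against 21.4, 12.2 and 2.61 TPM in jazQ (log2 fold change −5.70, standard error 0.85, edgeR adjusted p = 0.00267). PYK10, the main ER body glucosidase of roots, had a log2 fold change of 0.03, and its partner PBP1 one of 0.07, with no call. For MBP1, BGLU18 and JAL23 alike jazQ replicate 3 was the lowest jazQ library. It stayed above every jazQ mycT library, as for all 183 genes called lower.

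**Figure D2:**
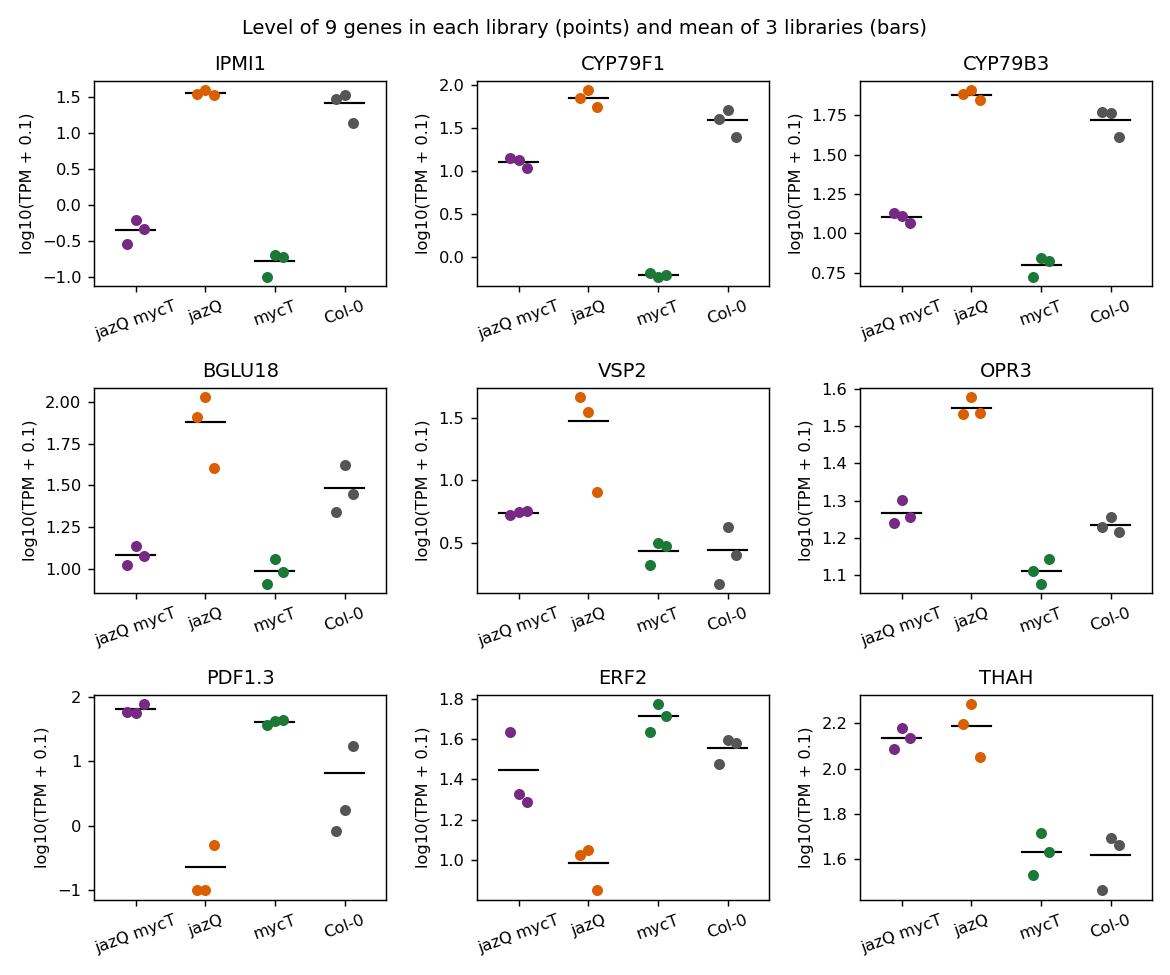
Levels of 9 genes in each library as log10(TPM + 0.1) on the vertical axis, with a point per library, a bar at the mean of 3 libraries and the genotypes along the horizontal axis. IPMI1, CYP79F1 and CYP79B3 are low wherever the MYC genes are mutated, VSP2 and OPR3 are highest in jazQ, PDF1.3 and ERF2 are lowest in jazQ, and THAH, a triterpenoid gene at 137 ± 14.4 TPM in jazQ mycT and 154 ± 40.4 TPM in jazQ, is high in both jazQ genotypes.

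Of 14 tested genes of jasmonate synthesis 3 were called lower, with a median log2 fold change of −0.18, and 5 were called lower without jazQ replicate 3. OPR3 (AT2G06050), the reductase that commits the pathway to jasmonate, was at 17.3, 19.9 and 18.0 TPM in jazQ mycT, against 34.0, 37.8 and 34.2 TPM in jazQ (−0.81, standard error 0.08, edgeR adjusted p = 0.000127). The allene oxide cyclases AOC1 and AOC2 averaged 60.4 ± 5.68 and 170 ± 8.61 TPM in jazQ mycT, against 113 ± 13.3 and 359 ± 62.7 TPM in jazQ, log2 fold changes of −0.81 and −0.98. LOX2, the lipoxygenase at the entry of the pathway, averaged 74.9 TPM in jazQ mycT and 140 TPM in jazQ and was not called (−0.80, edgeR adjusted p = 0.0681), and neither was AOS (−0.60, adjusted p = 0.128).

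Enzymes that inactivate jasmonates moved in both directions. Of 8 tested members 3 were called lower and 1 higher, with a median log2 fold change of −0.47. The list members JOX1, JOX2 and JOX4 were not matched by symbol and are not counted here. ILL6, an amidohydrolase of the active conjugate, averaged 5.63 ± 0.894 TPM in jazQ mycT and 12.6 ± 0.582 TPM in jazQ (−1.07, edgeR adjusted p = 0.000747). CYP94B1, which hydroxylates the same conjugate, averaged 14.3 ± 2.03 TPM in jazQ mycT and 9.52 ± 0.632 TPM in jazQ (0.68, edgeR adjusted p = 0.00108), and lost its call only in the comparison of log2(TPM + 1) without a filter, at an adjusted p of 0.0503. The calls of JRG21, a jasmonate hydroxylase (−1.56), and IAR3, an amidohydrolase (−0.35), were lost without jazQ mycT replicate 1 or 2 or jazQ replicate 1, that of JRG21 also without jazQ mycT replicate 3 and that of IAR3 also without jazQ replicate 2, at adjusted p values of up to 0.0871 and 0.073.

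The levels of wound markers were uneven between the jazQ libraries. Of 9 tested members all 9 had a negative log2 fold change and 3 were called lower, with a median of −1.05. VSP2 (AT5G24770), a vegetative storage protein used as a marker of the MYC branch, was at 5.17, 5.49 and 5.55 TPM in jazQ mycT, against 46.3, 34.9 and 7.95 TPM in jazQ (−2.37, standard error 0.48, edgeR adjusted p = 0.0211). NATA1 (AT2G39030), which acetylates ornithine, was at 0.18, 0.49 and 0.13 TPM in jazQ mycT, against 15.7, 7.02 and 0.98 TPM in jazQ (−4.86, standard error 1.00, edgeR adjusted p = 0.0219). The aminotransferase CORI3 was at 16.6, 22.1 and 20.6 TPM in jazQ mycT, against 52.2, 53.8 and 27.9 TPM in jazQ (−1.05, edgeR adjusted p = 0.0314). The genotypes did not overlap for these 3 genes, as for all 183 genes called lower, and jazQ replicate 3 lay nearest to jazQ mycT each time. The number of wound markers called lower was 8 when jazQ replicate 3 was left out, but 0 without jazQ mycT replicate 1, 2 or 3 or jazQ replicate 1 or 2. It was also 0 with the compared genotypes fitted alone, on log2(TPM + 1) without a filter and on centred log2(TPM + 1). VSP2, NATA1 and CORI3 reached adjusted p values of up to 0.128, 0.137 and 0.137 over all alternatives. VSP1 was at 28.8, 30.8 and 22.7 TPM in jazQ mycT, against 77.6, 66.6 and 23.9 TPM in jazQ, with overlapping values and no call.

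Of the other JAZ genes, which are intact in both genotypes, only JAZ7 and JAZ6 were called, 1 lower and 1 higher. JAZ7 (AT2G34600) was at 0.77, 0.85 and 1.06 TPM in jazQ mycT, against 3.05, 2.98 and 2.58 TPM in jazQ (log2 fold change −1.57, edgeR adjusted p = 0.0166), a call lost without any jazQ mycT library or jazQ replicate 1 or 2, at an adjusted p of up to 0.082. JAZ6 (AT1G72450) was at 61.1, 63.9 and 58.3 TPM in jazQ mycT, against 40.0, 47.8 and 37.1 TPM in jazQ (0.66, edgeR adjusted p = 0.00261). The other 10 of 12 tested members of this list, among them the receptor gene COI1, the adaptor gene NINJA and the corepressor gene TPL, were not called.

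Of the 8 mutated genes, 2 were called. Reads assigned to a mutated locus may come from a truncated or chimeric transcript, which these counts cannot tell apart from an intact one. JAZ3 reads averaged 246 ± 37.1 TPM in jazQ mycT and 614 ± 65.3 TPM in jazQ (log2 fold change −1.22, edgeR adjusted p = 0.000173), while mycT and Col-0 had 11.8 ± 2.73 and 12.8 ± 1.39 TPM. TDX (AT3G17880), a near neighbour of JAZ3 annotated as a thioredoxin with a tetratricopeptide domain, followed the same order at 63 ± 4.97 TPM in jazQ mycT and 149 ± 5.62 TPM in jazQ, with 22.7 ± 2.21 TPM in mycT and 26.2 ± 1.15 TPM in Col-0 (−1.15 for jazQ mycT over jazQ, edgeR adjusted p = 5.65e-07). MYC4 reads averaged 27.2 ± 1.41 TPM in jazQ mycT and 18.8 ± 0.608 TPM in jazQ (0.64, edgeR adjusted p = 0.00265), and those of MYC2 averaged 22.9 ± 0.914 TPM in jazQ mycT and 34.3 ± 4.46 TPM in jazQ without a call (−0.48, adjusted p = 0.0519). Among 20 tested neighbours of each mutated locus, only JAZ3, with TDX lower and AT3G17930 higher, and MYC3, with AT5G46780 higher, had any call. Taken over all 8 loci, these calls do not exceed the 2.21% called among all tested genes. The call of AT5G46780 (0.81, edgeR adjusted p = 0.0398) held in 12 of 24 alternatives and was lost without jazQ mycT replicate 1 or 2, any jazQ library, mycT replicate 2 or Col-0 replicate 1, at an adjusted p of up to 0.147.

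Genes of the branch that jasmonate shares with ethylene were higher in jazQ mycT. Of 10 tested members 7 were called higher and none lower, with a median log2 fold change of 1.67 that does not depend on the fitted values of the defensins near 0. ERF2 (AT5G47220), an ethylene response factor, was at 43.3, 21.1 and 19.3 TPM in jazQ mycT, against 10.5, 11.1 and 6.95 TPM in jazQ (1.69, standard error 0.33, edgeR adjusted p = 0.0178). ORA59 (AT1G06160), the factor that integrates both hormones on defensin promoters, was at 7.11, 6.23 and 5.93 TPM in jazQ mycT, against 1.94, 3.2 and 1.54 TPM in jazQ (1.64, standard error 0.29, edgeR adjusted p = 0.00864). The genotypes did not overlap for either gene, which the rule for the 10 largest rises required of both. The call of ERF2 was lost without jazQ replicate 1, 2 or 3, with the compared genotypes fitted alone and on log2(TPM + 1) without a filter, at an adjusted p of up to 0.0657 over all alternatives. That of ORA59 was lost without jazQ replicate 1, at 0.0505. The number of members called was 4 without jazQ replicate 1 and otherwise 5 to 7.

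The defensins at the end of this branch were close to absent in jazQ. PDF1.3 (AT2G26010) was at 58.6, 54.6 and 76.8 TPM in jazQ mycT, against 0, 0 and 0.4 TPM in jazQ, which is 1384 counts in jazQ mycT against 2 counts in jazQ, a ratio of 570 with a counting interval of 158 to 4713 (95% Clopper-Pearson). PDF1.2B and PDF1.2C had 90 counts each in jazQ mycT and 0 in jazQ, so both were at least 8.04-fold higher on a floor of 3 counts per jazQ library. PDF1.2A was at 10.2, 15.5 and 23.1 TPM in jazQ mycT, against 0.54, 0 and 0.23 TPM in jazQ. These 4 genes are near-identical in sequence, so the share of reads that each received is uncertain. Every jazQ mycT library lay above every jazQ library for all 4. The rule for the 10 largest rises required this of PDF1.2A, PDF1.2B and PDF1.3. The call of PDF1.2C was lost without jazQ mycT replicate 2 or 3 or jazQ replicate 1 or 2, at an adjusted p of up to 0.0712 by edgeR. HEL, a hevein-like defense protein, averaged 217 TPM in jazQ mycT and 123 TPM in jazQ (log2 fold change 0.92, edgeR adjusted p = 0.00141). EIN3 and EIL1, the ethylene factors upstream, had log2 fold changes of −0.07 and 0.01 and no call. CHIB, a defense gene of the same list, had no call either and the lowest value of the list, −0.16, so the rise did not cover every defense gene of the branch.

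Promoters are shown for genes on both sides of the comparison because MYC proteins bind the G-box CACGTG, which reads the same on both strands, and its variant CACATG, read as CATGTG on the other strand. The stretches come from the TAIR10.1 assembly of RefSeq, lie before the start of the gene, are written in the gene's own direction, and have the motif in capitals. They cover chr1:1882683-1882748 on the plus strand for ORA59, chr5:19172960-19173025 on the minus strand for ERF2 and chr1:19352861-19352926 on the minus strand for MBP1.
ORA59: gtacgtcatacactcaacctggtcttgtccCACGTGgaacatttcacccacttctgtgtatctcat
ERF2: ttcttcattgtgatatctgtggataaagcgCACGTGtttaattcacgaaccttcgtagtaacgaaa
MBP1: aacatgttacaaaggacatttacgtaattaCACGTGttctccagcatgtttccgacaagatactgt
The variant stands at chr2:11087071-11087136 on the plus strand for PDF1.3 and at chr3:8036063-8036128 on the minus strand for HMT3.
PDF1.3: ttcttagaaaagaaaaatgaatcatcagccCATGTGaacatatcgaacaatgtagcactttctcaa
HMT3: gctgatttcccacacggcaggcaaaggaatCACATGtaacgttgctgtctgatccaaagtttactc
In windows of 300 bases, from 250 before to 50 after the start, CACGTG was present in 29 of 183 genes called lower (15.8%), in 13 of 141 called higher outside the start of chromosome 2 (9.22%) and in 8.67% of 20694 tested genes. CACATG or CATGTG was present in 19.1% of the genes called lower, 13.5% of those called higher there and 13% of all. With the 250 bases before the start alone, CACGTG was in 12%, 7.8% and 7.29%. Of 20 genes whose windows were read, 12 held neither motif in the 250 bases before the start. They were the lower genes IPMI1, IPMI2, MAM3, CYP79B3, NATA1, BGLU18 and JAL23 and the higher genes PDF1.2B, MYB47, AACT1, AT4G04223 and AT1G15125, which says only that these letters are not in that window.

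Besides defensins, the 10 largest rises held regulators and enzymes of other kinds. MYB47 (AT1G18710), a MYB transcription factor, was at 4.35, 5.29 and 5.41 TPM in jazQ mycT, against 0.53, 0.96 and 0.51 TPM in jazQ, a 7.98-fold higher level (log2 fold change 3.00, edgeR adjusted p = 0.000127). AACT1 (AT5G61160), an acyltransferase, was at 12.9, 11.7 and 17.0 TPM in jazQ mycT, against 2.25, 2.13 and 2.26 TPM in jazQ (2.74, edgeR adjusted p = 9.65e-05). DIN11 (AT3G49620), a dark-inducible dioxygenase family gene, was at 9.54, 8.32 and 14.2 TPM in jazQ mycT, against 2.79, 2.85 and 3.29 TPM in jazQ (1.94, edgeR adjusted p = 0.000212). The rule for the 10 largest rises admitted only genes without overlap, these 3 among them. The log2 fold change was 2.36 for AT4G04223, a non-coding RNA, and 1.95 for AT1G15125, a methyltransferase family gene, whose call was lost without jazQ replicate 1, at an adjusted p of up to 0.0771 over all alternatives. Chosen after their values were seen, the legume lectin genes AT3G16530 and AT3G15356 were higher by 1.44 and 1.38, the peroxidase gene PRXCA by 1.39 and the ERF family gene RAP2.9 by 1.57. The call of AT3G15356 was lost without jazQ mycT replicate 1 or 2 or any jazQ library, at an adjusted p of up to 0.0735.

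Several gene groups showed few calls or none between the genotypes. The marneral and thalianol triterpenoid clusters had 0 of 7 tested members called, a median log2 fold change of 0.02, and THAS at 94 ± 9.53 TPM in jazQ mycT and 124 ± 33.6 TPM in jazQ. None of 18 anthocyanin and flavonol genes, 13 flowering-time genes or 15 cell-division genes was called, with medians of −0.13, −0.19 and 0.01, but 1 flowering-time gene was lower without jazQ replicate 3, mycT replicate 3 or Col-0 replicate 3. Of 44 photosystem, antenna and Rubisco genes LHCB4.3 (0.61) and RBCS2B (0.37) were called higher, with a median of −0.12. Of the 44, 34 had a negative log2 fold change, and 5 were called lower without jazQ replicate 3. The call of LHCB4.3 was lost on log2(TPM + 1) without a filter, at an adjusted p of 0.0612, and that of RBCS2B held in 8 of 24 alternatives and, of those that left out a library, only without jazQ replicate 1 or mycT replicate 1 or 3, at an adjusted p of up to 0.49 in the others. Of 11 phosphate starvation genes IPS1 was lower, at 9.95 ± 2.01 TPM in jazQ mycT and 22.4 ± 1.76 TPM in jazQ (−1.08, edgeR adjusted p = 0.00968, 0.0509 without jazQ mycT replicate 1). Of 10 iron genes the ferritin FER1 was lower (−0.87, adjusted p = 0.0318) and of 16 salicylic acid genes PR5 was higher (0.73, edgeR adjusted p = 0.0215). Both calls were lost without jazQ mycT replicate 1 or 2 or jazQ replicate 1 or 2, that of FER1 also without jazQ mycT replicate 3 and that of PR5 also without jazQ replicate 3, at up to 0.143 and 0.11.

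The same MYC mutations were compared in the wild-type background, in mycT against Col-0, which shares no library with jazQ mycT against jazQ. There 177 genes (0.847%) were called lower and 200 (0.957%) higher. Of the genes called lower, 61 were called in both backgrounds, 33.3% of the jazQ list and 34.5% of the Col-0 list, and none was called in the opposite direction. Of the 142 genes called higher in jazQ mycT outside the start of chromosome 2, 20 were also called higher in mycT, which is 14.1% of that list, out of 198 genes called higher in mycT outside the same stretch. The median log2 fold change of the 183 genes called lower was −0.69 in the jazQ background and −0.32 in the Col-0 background. These genes were selected by their call in the jazQ background, which favours a larger value there, so the 2 medians do not compare the backgrounds. A call in one background alone does not show a difference, which was tested as an interaction, the log2 fold change of jazQ mycT over jazQ minus that of mycT over Col-0. It was called for 121 genes (0.579%), 48 of them outside the start of chromosome 2 (0.232%). These 48 numbered 27, 22 and 21 without jazQ mycT replicates 1, 2 and 3, 30 and 27 without jazQ replicates 1 and 2, 26 and 31 without mycT replicates 1 and 2, and 23, 28 and 75 without Col-0 replicates 1, 2 and 3. On log2 TPM as deposited they were 14, 20 and 15, and with DESeq2 123. With the genes of the chromosome 2 stretch left out before the fit, 19 interactions were called.

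**Figure D3:**
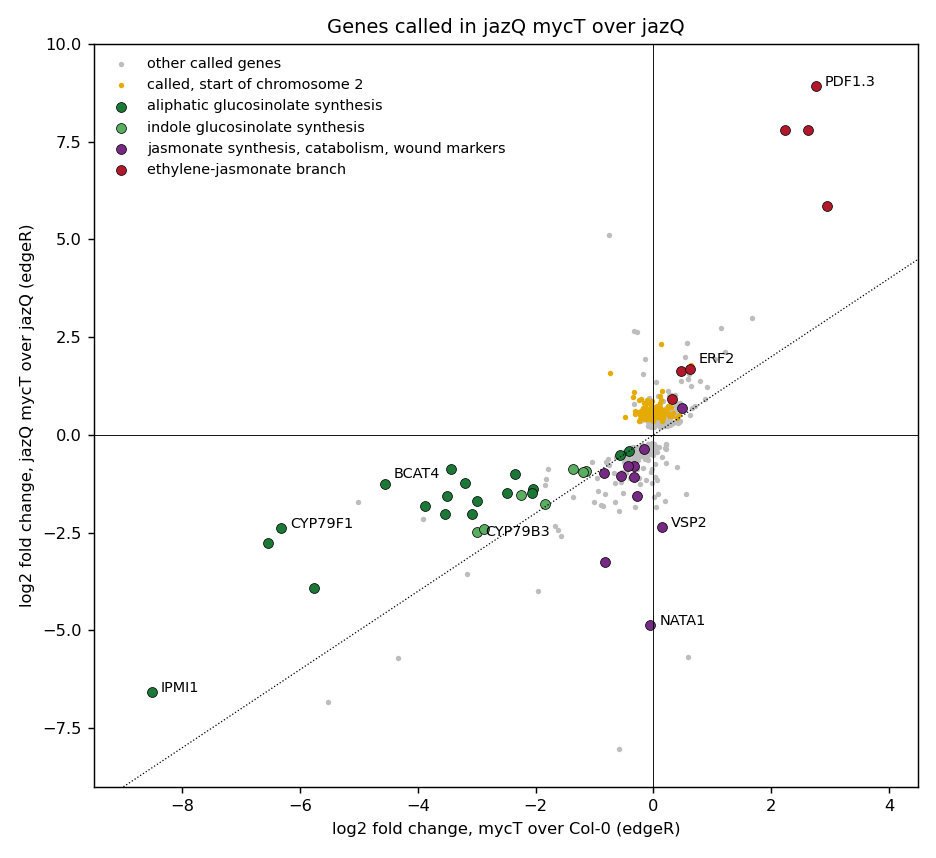
Genes called in jazQ mycT over jazQ, placed by their edgeR log2 fold change of mycT over Col-0 (horizontal) and of jazQ mycT over jazQ (vertical), with the dotted line marking equal values. Aliphatic glucosinolate genes lie above the line in the lower left, VSP2 and NATA1 near 0 on the horizontal axis, and genes of the start of chromosome 2 near 0.5 on the vertical axis. The vertical values of PDF1.2B, PDF1.2C and PDF1.3 rest on 0 to 2 counts in jazQ.

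Part of the aliphatic glucosinolate genes fell by a smaller fold in the jazQ background than in Col-0. The list median was −1.44 in the jazQ background and −3.03 in the Col-0 background, and 6 of its 22 members had an interaction called, all positive, against 0.469% of all tested genes with a positive one. BCAT4 averaged 37.8 ± 4.45 TPM in jazQ mycT and 97.7 ± 15.8 TPM in jazQ, against 2.13 ± 0.311 TPM in mycT and 52.8 ± 15 TPM in Col-0, so that it was 2.38-fold lower in jazQ mycT than in jazQ and 23.6-fold lower in mycT than in Col-0 (interaction 3.31, standard error 0.33, edgeR adjusted p = 0.000702). CYP79F1 was at 0.55, 0.49 and 0.51 TPM in mycT, against 40.2, 51.5 and 25.0 TPM in Col-0, while jazQ mycT kept 12.7 ± 1.71 TPM (interaction 3.93, edgeR adjusted p = 0.00303). The interaction was 3.79 for MAM3, 2.57 for CYP83A1, 2.06 for MAM1 and 1.34 for IMD1. Whether the interaction call of each gene held under the alternatives was not examined. Summed over the mycT libraries, the counts were 19 for MAM3, 35 for CYP79F1, 118 for BCAT4, 580 for CYP83A1, 581 for MAM1 and 907 for IMD1, so the largest of these values rest on few counts. IPMI1 and IPMI2 had interactions of 1.93 and 1.86 without a call, and the core indole enzymes CYP79B3 and CYP83B1 had 0.52 and 0.72 without a call. In the indole list GGP1 alone had one, as it averaged 220 ± 3.91 TPM in jazQ mycT and 290 ± 18.3 TPM in jazQ, against 118 ± 8.25 TPM in mycT and 238 ± 24.3 TPM in Col-0 (0.64, edgeR adjusted p = 0.0155).

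Other groups were set beside their values in Col-0 without an interaction call. VSP2 had 2.63 ± 0.554 TPM in mycT and 2.65 ± 1.38 TPM in Col-0, where its log2 fold change was 0.15 against −2.37 in the jazQ background, and the interaction was −2.52 (edgeR adjusted p = 0.27). OPR3 had a log2 fold change of −0.33 in the Col-0 background (interaction −0.48, adjusted p = 0.111), and JAZ7 one of 0.01 (interaction −1.58, edgeR adjusted p = 0.214). PDF1.3 was at 35.6, 41.9 and 43.2 TPM in mycT, against 0.73, 1.68 and 16.8 TPM in Col-0, a wide spread within the wild type. ERF2 averaged 51.6 ± 8.15 TPM in mycT and 35.8 ± 5.2 TPM in Col-0, so jazQ, at 9.49 ± 2.22 TPM, was the genotype with the lowest level.

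The jazQ libraries also enter jazQ over Col-0, so its values are given only side by side with those of jazQ mycT over jazQ. The median log2 fold change of the 183 genes called lower was 0.30 in jazQ over Col-0 and −0.32 in jazQ mycT over Col-0, and that of the 142 called higher outside the start of chromosome 2 was −0.15 in jazQ over Col-0 and 0.32 in jazQ mycT over Col-0. The ethylene-jasmonate list had medians of 1.67 in jazQ mycT over jazQ, −1.64 in jazQ over Col-0 and 0.44 in jazQ mycT over Col-0. The wound markers had −1.05 in jazQ mycT over jazQ, 1.62 in jazQ over Col-0 and 0.30 in jazQ mycT over Col-0. The triterpenoid clusters had 0.02 in jazQ mycT over jazQ, 1.90 in jazQ over Col-0 and 1.82 in jazQ mycT over Col-0. G6PD3 (AT1G24280), a plastid glucose-6-phosphate dehydrogenase, was lower in all 3 jazQ libraries than in any other library. It was at 12.7, 13.9 and 13.4 TPM in jazQ mycT, against 5.39, 5.64 and 5.77 TPM in jazQ. The other genotypes had 14.8, 14.7 and 15.2 TPM in mycT and 15.1, 15.8 and 15.3 TPM in Col-0 (1.35 for jazQ mycT over jazQ, edgeR adjusted p = 1.09e-06).

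A block of neighbouring genes at the start of chromosome 2 was raised by a near-constant amount in jazQ mycT. Its end, at AT2G04040, was placed after the values were seen, and none of the 8 mutated genes is on this chromosome. The stretch runs on TAIR10.1 from chromosome 2, position 1025 to 1336550, and holds 367 annotated genes, of which 212 were tested (1.01% of those tested). Of these 136 (64.2%) were called higher in jazQ mycT than in jazQ, none was called lower, and 204 had a positive log2 fold change. They made up 48.9% of all genes called higher, and no member of the gene lists was among them.

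The rise in this stretch was alike from gene to gene. Its median log2 fold change was 0.52, with quartiles of 0.44 and 0.63, which is 1.44-fold. The median over 167 of its genes, relative to the Col-0 mean, was 0.53, 0.55 and 0.52 in the 3 jazQ mycT libraries and between −0.016 and 0.032 in each of the other 9 libraries. The 212 tested genes next in order had a median of 0.0053, with 1 called higher and 2 lower. They include the tested ribosomal RNA genes inside the span, which were not counted in the stretch. In mycT over Col-0 the median of the stretch was −0.03 and in jazQ over Col-0 it was 0.0015, and 73 of the 121 interaction calls lay in it. AT2G03390 averaged 140 ± 12.9 TPM in jazQ mycT and 93.1 ± 1.63 TPM in jazQ, against 86.9 ± 5.75 TPM in mycT and 102 ± 3.49 TPM in Col-0 (0.68 for jazQ mycT over jazQ, edgeR adjusted p = 7.14e-06). Only RNA was measured, and the cause was not tested. Windows of 21 genes elsewhere had medians between −0.20 and 0.18, except those with AT2G07 locus tags, which reached 0.77 in jazQ mycT over jazQ and 0.31 in mycT over Col-0. When the genes of the stretch were left out before the fit, 149 genes were lower, 114 were higher and 19 had an interaction.

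**Figure D4:**
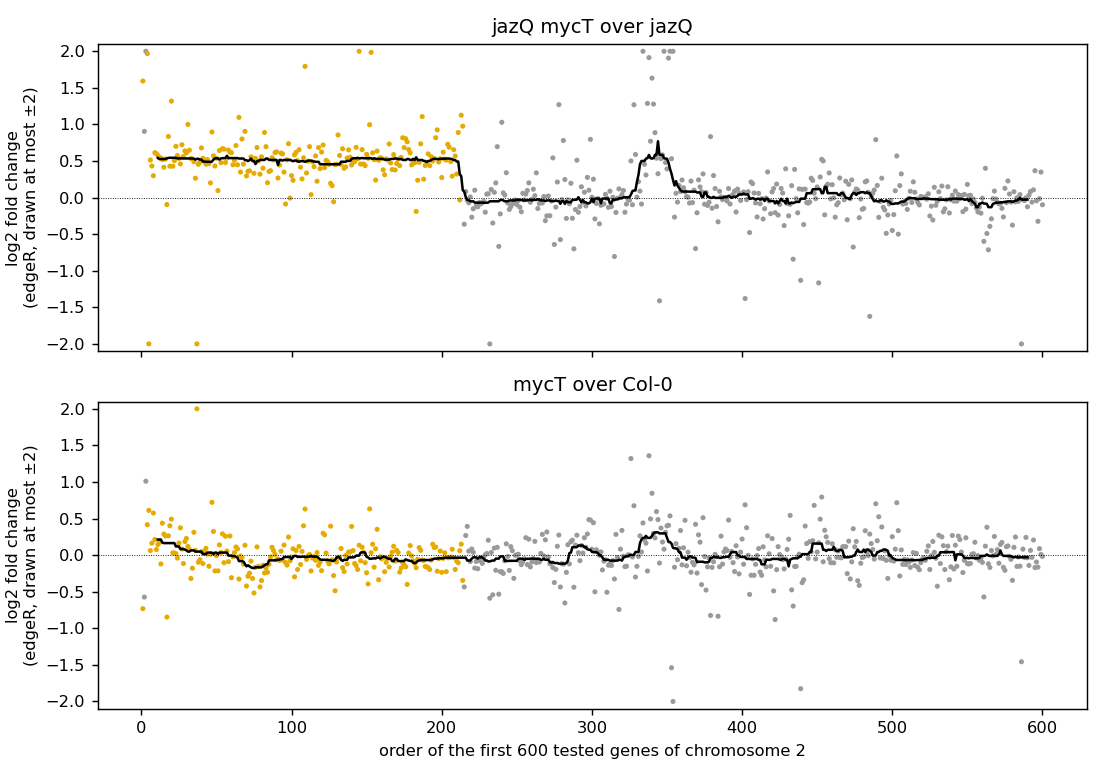
The first 600 tested genes of chromosome 2 in their order (horizontal axis, gene rank), with the edgeR log2 fold change of each gene (vertical axis, points beyond 2 drawn at 2) and the running median of 21 genes as a line, for jazQ mycT over jazQ (top) and mycT over Col-0 (bottom). The yellow genes of the stretch lie around a median of 0.52 in the top panel and −0.03 in the bottom panel. The grey points inside it are genes for ribosomal RNA, which were not counted in it.

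A further 2 loci lost nearly all reads in jazQ mycT alone and were chosen after their values were seen. AT2G04380, an unknown protein gene just beyond the stretch, had 0 counts in all 3 jazQ mycT libraries, against 14, 49 and 22 counts in jazQ, so it was at least 11.7-fold lower on the floor of 3 counts per library. AT1G67328, a non-coding RNA gene on chromosome 1, had 0, 0 and 4 counts in jazQ mycT, against 116, 44 and 31 counts in jazQ.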

How the data were processed

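The authors filtered single-end 50-base reads and quantified them on TAIR10 gene models with RSEM 1.2.11. They deposited expected counts per gene, given as whole numbers, and TPM values per library, with replicates kept apart. Strand and aligner are not given in the sources used here, so overlapping and antisense genes may share reads. The expected counts were fitted with edgeR 4.0.16 in R 4.3.3, with TMM normalization, filterByExpr (20888 of 33602 genes kept), a term for genotype over all 12 libraries, and quasi-likelihood tests. TPM are shown as levels and were not used for calls. Error bars and ± are SD over 3 libraries. The p-values weigh a difference against the spread between libraries of a genotype, estimated over all 12 libraries. Counting intervals and floors, at 95% and 3 counts, cover counting error only.

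The text names the 8 mutated genes, up to 5 called and 3 uncalled members of each of 21 lists, the 10 largest falls and 10 largest rises (at least 5 TPM, no overlap), and 5 interaction genes. Another 17 genes were chosen after their values were seen, as were single list members given for completeness. Members and lists were chosen with earlier results of these data known. Of 355 list members, 346 were matched and 333 tested. Those not matched by symbol, and so left out, were JAZ13, MYC5, JOX1, JOX2, JOX4, UGT74C1, IGPS, UGT75C1 and 3AT1. Alternatives were other normalizations, filters, DESeq2 1.42.0, limma 3.58.1 on log2 TPM, a replicate block and leaving out each library. Leaving out the chromosome 2 stretch, leaving out ribosomal RNA and organelle genes, and centring TPM were added after seeing the data. In simulated counts for 20777 genes, 170 of 200 changed genes were recovered for jazQ mycT over jazQ, with 11 false calls among 181. The simulated log2 changes were at least 1 in size, above most of those called in the data, so recovery of smaller changes was not tested. Promoter windows came from RefSeq on TAIR10.1, read with Python 3.11.15.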

Additional observations from a re-analysis of the deposited data

Results flagged for a closer look

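The log2 fold change of jazQ mycT over jazQ differed from that of mycT over Col-0 for 121 genes by the interaction term of edgeR's test, and the values below are that difference. Among aliphatic glucosinolate genes and their supply it was 3.93 for CYP79F1, 3.79 for MAM3, 3.31 for BCAT4, 3.29 for AK3, 2.57 for CYP83A1, 2.06 for MAM1 and 1.34 for IMD1. It was 0.64 for GGP1, 2.09 for DIN11 and 1.303 for G6PD3. Beside the mutated JAZ3 locus it was −1.20 for JAZ3 and −1.02 for TDX. At the start of chromosome 2 it was 0.82 for AT2G03390 and 0.85 for EXGT-A3. AT1G52905 had an interaction of 5.12, with 16.8 TPM in jazQ mycT and 16.8 TPM in jazQ, against 0.637 TPM in mycT and 20.1 TPM in Col-0. AT1G67328 had one of −6.28, on few counts.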

How the results depend on the processing

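Of 148 named genes 75 were called, 49 of these kept their call in every alternative and 26 lost it in at least 1, and none reversed. Leaving out a library cost 23 genes their call, and other alternatives cost 18. The 18 include CYP83A1, SAL1, SULTR1;2, JRG21, AT1G15125, AT3G15356, FER1 and PR5, whose losses are listed above by library. Genes called lower (183) numbered 96 to 281 when 1 library was left out, with 112, 96 and 119 without jazQ mycT replicates 1, 2 and 3 and 110, 112 and 281 without jazQ replicates 1, 2 and 3. Genes called higher (278) numbered 158 to 290, with 158 without jazQ mycT replicate 2 and 168 without jazQ replicate 2. Interactions (121) numbered 63 to 145, with 63 and 64 without jazQ mycT replicates 2 and 3, 80 and 79 without jazQ replicates 1 and 2, 77 without mycT replicate 1 and 69 without Col-0 replicate 1. DESeq2 called 213 interactions. On log2(TPM + 1), log2(TPM + 0.1) and log2(TPM + 1) without a filter, limma called 108, 103 and 74 genes higher and 25, 32 and 24 interactions. There the median of all genes moved by −0.097, −0.106 and −0.067, and higher calls were 34.3%, 34.3% and 34.4% of all calls, against 60.3% with TMM and 60.7% with centred TPM. An adjusted p under 0.01 left 89 lower, 145 higher and 42 interactions, and a log2 change of at least 1 left 67, 34 and 23. Without the chromosome 2 stretch, a choice made after seeing the data, 114 were higher and 19 had an interaction. CACGTG was in 7.29% of all 250-base windows. The causes were not tested.

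With the replicate number as a block 222 genes were lower and 285 higher. Samples of the same number did not deviate together throughout, with correlations of −0.0099, 0.046 and 0.132, so the numbers were not read as pairs. With the compared genotypes fitted alone, 155 genes were lower and 232 higher, 107 of the latter outside the chromosome 2 stretch. The interaction could not be fitted with these genotypes alone. Low counts limit the defensins, AT2G04380 and AT1G67328 most.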
